A study of Mus musculus with 7 samples.

Results

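The clustered protocadherins are cell adhesion proteins of the cadherin superfamily whose genes stand in 3 neighbouring clusters, alpha, beta and gamma. They were taken here as all genes named Pcdha, Pcdhac, Pcdhb, Pcdhga, Pcdhgb or Pcdhgc with a number whose counts reached 10 in at least 2 of the 7 libraries. Of 58 genes with such a symbol 57 qualified, 14 in the alpha, 21 in the beta and 22 in the gamma cluster, out of 25700 genes in the files. Pcdhb1 had 0 counts in all 7 libraries and was left out.

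Many protocadherins of this family bind the same protein on a neighbouring cell through their extracellular cadherin domains. An alpha or gamma gene has a promoter and a large first exon of its own, which encodes the extracellular part, the membrane span and the start of the tail. That exon is spliced to 3 exons at the end of the cluster that all genes of the cluster share and that encode a common cytoplasmic tail. A beta gene is a single exon without such a shared part. In neurons each cell switches on a few promoters of the clusters, through CTCF and cohesin, and so carries its own combination of adhesion proteins. The C-type genes at the end of the alpha and gamma clusters (Pcdhac1, Pcdhac2, Pcdhgc3, Pcdhgc4 and Pcdhgc5) are not chosen in this random way.

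The tissue was the dental epithelium of the lower incisors of newborn mice (PN0). The 4 libraries labelled K14;Nogo-A (replicates 1, 2, 7 and 10) came from pups with the genotype K14cre cre/+; Nogo-A fl/fl, in which Cre under the keratin 14 promoter removes a floxed part of Nogo-A, the long form of the gene Rtn4, from epithelial cells. The 3 wild-type libraries (replicates 3, 8 and 9) came from controls of the same age, which the study describes as littermates. Each library held the epithelium of the left and right incisor of 1 pup, freed from the mesenchyme with Dispase. The study had 1 more wild-type animal, which was not analysed here. Values of single libraries are listed below in the order of these replicate numbers.

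The libraries held 20929207 to 41219439 counts on genes. Rtn4 spanned 297 to 344 CPM (counts relative to the TMM-scaled library size) in the K14;Nogo-A libraries and 277 to 346 CPM in the controls, and since its count also takes up transcripts without the floxed part, it does not check the genotype. The epithelial keratin gene Krt14 averaged 2448 ± 184 CPM in the K14;Nogo-A (SD, n = 4) and 1983 ± 624 CPM in the wild-type libraries (SD, n = 3), so epithelial RNA was present. The collagen gene Col1a1, which mesenchyme makes, was high as well, at means of 12057 and 22888 CPM. Libraries were not ordered by genotype alone. Y-linked transcripts (Ddx3y, Eif2s3y, Kdm5d and Uty) were present in K14;Nogo-A replicate 1 and in wild-type replicates 3 and 8 and near 0 in the other 4 libraries, and the same 3 libraries lay together at one end of the first principal component. For the shared exons, the cluster sums and the genes with the main values, log2 ratios within these sets of libraries are given below. Bulk RNA does not tell fewer cells of a type from less RNA per cell.

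The annotation shows what a count of each gene can hold. On GRCm38 all 3 clusters lie on the plus strand of chromosome 18, the alpha cluster at chr18:36930184-37187661, the beta cluster at chr18:37264938-37524479 and the gamma cluster at chr18:37661793-37841873. The shared exons of the alpha cluster are 59, 89 and 2712 bases long, 2860 in all, and those of the gamma cluster are 59, 89 and 1968 bases long, 2116 in all. The last of each set holds the end of the coding sequence and the 3′ untranslated region. The median first exon has 2494 bases in the alpha and 2613.5 bases in the gamma cluster, so about as much of an annotated transcript is common to the cluster as belongs to the gene. Every beta gene is a single block of exon, with a median length of 3714 bases. A few neighbours overlap outside the shared exons: Pcdhgb1 and Pcdhga4 over 1038 bases, Pcdhb21 and Pcdhb22 over 455 and Pcdhgb4 and Pcdhga8 over 108.

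The counts of the alpha and gamma genes were nearly the same number written 14 and 22 times. In the gamma cluster the lowest count of any gene was 4745, 5071, 6459 and 6488 in K14;Nogo-A, against 12362, 11896 and 5058 in wild-type. Apart from Pcdhgc3, the highest gene of the cluster stood only 2.53% to 5.56% above the lowest in each library. In the alpha cluster the lowest counts were 180, 252, 353 and 344 in K14;Nogo-A, against 562, 589 and 277 in wild-type, and apart from Pcdhac2 the highest gene stood 3.06% to 5.67% above them. Such a pattern follows where a read on a shared exon is counted for every gene that owns the exon, and here the lowest count of a cluster in a library is taken as the reads on its shared exons. What a gene held beyond that is called its gene-specific count. By this measure at least 94.6% of the count of each alpha gene other than Pcdhac2, and at least 94.7% of each gamma gene other than Pcdhgc3, came from the shared exons.

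**Figure D1:**
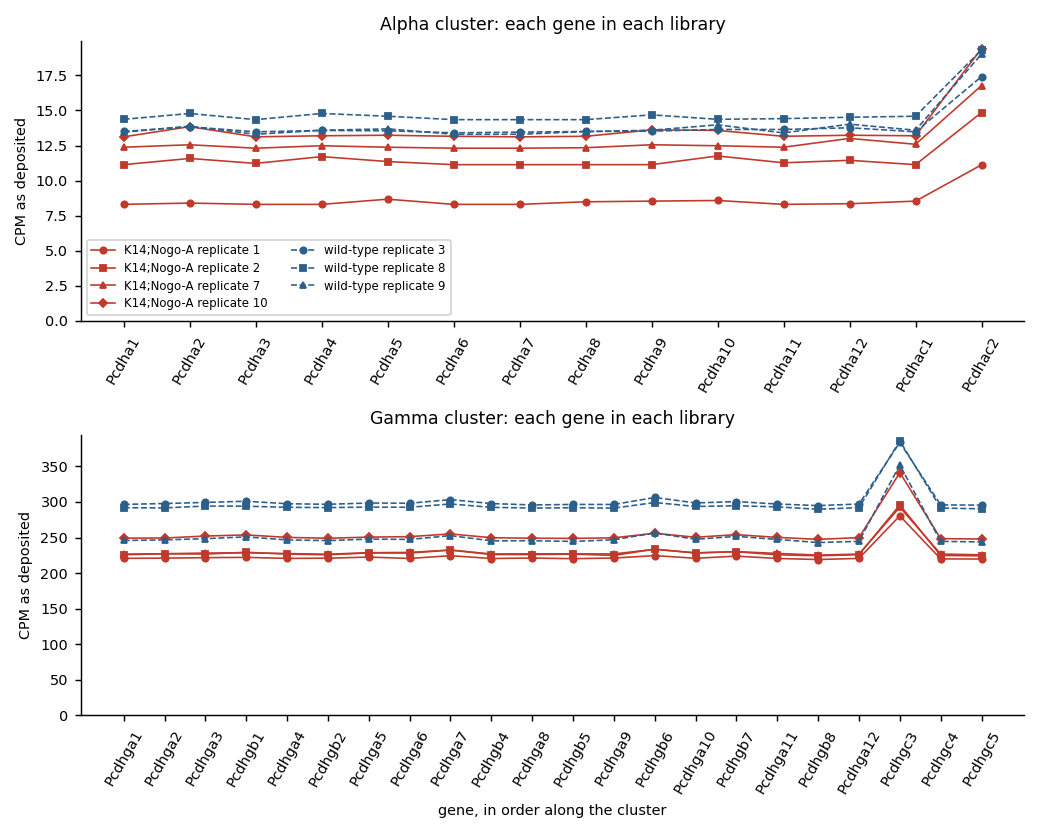
CPM as deposited (y axis, from 0) of each gene of the alpha cluster (top) and the gamma cluster (bottom), in order along the cluster, with 1 line for each of the 4 K14;Nogo-A (red, solid) and 3 wild-type (blue, dashed) libraries. The lines are flat apart from Pcdhac2 and Pcdhgc3, since all genes of a cluster carry the reads of the same shared exons.

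The multiplied reads also set the apparent size of the family. The 57 genes took 0.518% to 0.726% of all counts of a library, of which 94.3% to 95.7% stood on gamma genes. With the reads of the shared exons counted once per cluster, the share was 0.0458% to 0.0609%. The annotated read-through genes Gm42416, Gm37013 and Gm37388 carry exons of the gamma cluster and have no exonic base of their own. Gm37013 and Gm37388 held 308 to 817 counts and differed from each other by at most 2 counts in any library. They are no members and entered no result on the family.

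Most gene-specific reads of the gamma cluster lay on 1 gene, Pcdhgc3. The gamma shared exons had 118 CPM per kb over the 7 libraries and the alpha shared exons 4.32 CPM per kb. Per kb the shared exons stood 1.79 to 3.02 times above the summed gene-specific level in the gamma and 1.40 to 2.23 times in the alpha cluster. Pcdhgc3 (ENSMUSG00000102918), a C-type gene, had a gene-specific level of 24.9 CPM per kb of its own exon. The next gamma genes were Pcdhgb6 at 3.68, Pcdhga7 at 2.49 and Pcdhgb7 at 2.28 CPM per kb, so Pcdhgc3 stood 6.76 times above the nearest of them. Of the gene-specific gamma counts it held 53.2% to 59.1% in the K14;Nogo-A libraries and 54.5% to 59.2% in the wild-type libraries, and these ranges overlap. The median gamma gene had 0.968 CPM per kb. The other C-type genes, Pcdhgc4, which neurons need to survive in the developing nervous system, and Pcdhgc5, were among the lowest at 0.342 and 0.0964 CPM per kb. Pcdhgb8, annotated as a polymorphic pseudogene, had 4 gene-specific counts in K14;Nogo-A replicate 2 and 0 in the other 6 libraries, although its deposited CPM averaged 249. The gene with the lowest count has a gene-specific count of 0 by definition, so this places Pcdhgb8 last and does not show it to be silent.

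The alpha cluster followed the same form at a far lower level. Pcdhac2 (ENSMUSG00000102697), a C-type gene known for the spacing of serotonergic axons, had 61 to 165 gene-specific counts in the K14;Nogo-A libraries and 119 to 204 in the others. It held 60.9% to 74.3% of the gene-specific alpha counts over all libraries, and its level of 1.51 CPM per kb was 8.96 times that of the next alpha gene, Pcdha2. The other 13 alpha genes stayed under 0.2 CPM per kb each, with Pcdha2, Pcdha10 and Pcdha12 at 0.168, 0.141 and 0.139. Pcdhac1, the other C-type alpha gene, had 0.0664 CPM per kb. For 10 of the 14 alpha genes the gene-specific counts were too low to pass the filter (10 or more counts in 50% or more of one genotype's libraries), although all 14 pass it with the deposited counts.

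The beta genes carry no shared exons, so their counts are their own apart from the overlap of Pcdhb21 and Pcdhb22. No single gene stood apart as Pcdhgc3 and Pcdhac2 did. The highest were Pcdhb20 at 3.17 and Pcdhb17 at 2.71 CPM per kb, followed by Pcdhb9 at 1.98, Pcdhb7 at 1.88 and Pcdhb19 at 1.83, and the lowest was Pcdhb2 at 0.217. The median of the 21 genes was 1.19 CPM per kb and the highest stood 14.6 times above the lowest. Of the 20 pairs of neighbours in this order only 5 differed by more than the SD of their difference over the 7 libraries: Pcdhb20 and Pcdhb17, Pcdhb17 and Pcdhb9, Pcdhb19 and Pcdhb16, Pcdhb3 and Pcdhb15, and Pcdhb21 and Pcdhb2. The order was much alike in both genotypes, with a rank correlation of the genotype means of 0.949 across the 21 beta genes and 0.966 across the 22 gamma genes on gene-specific counts. This describes genes that share their libraries and exon lengths, and genes are not independent replicates.

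**Figure D2:**
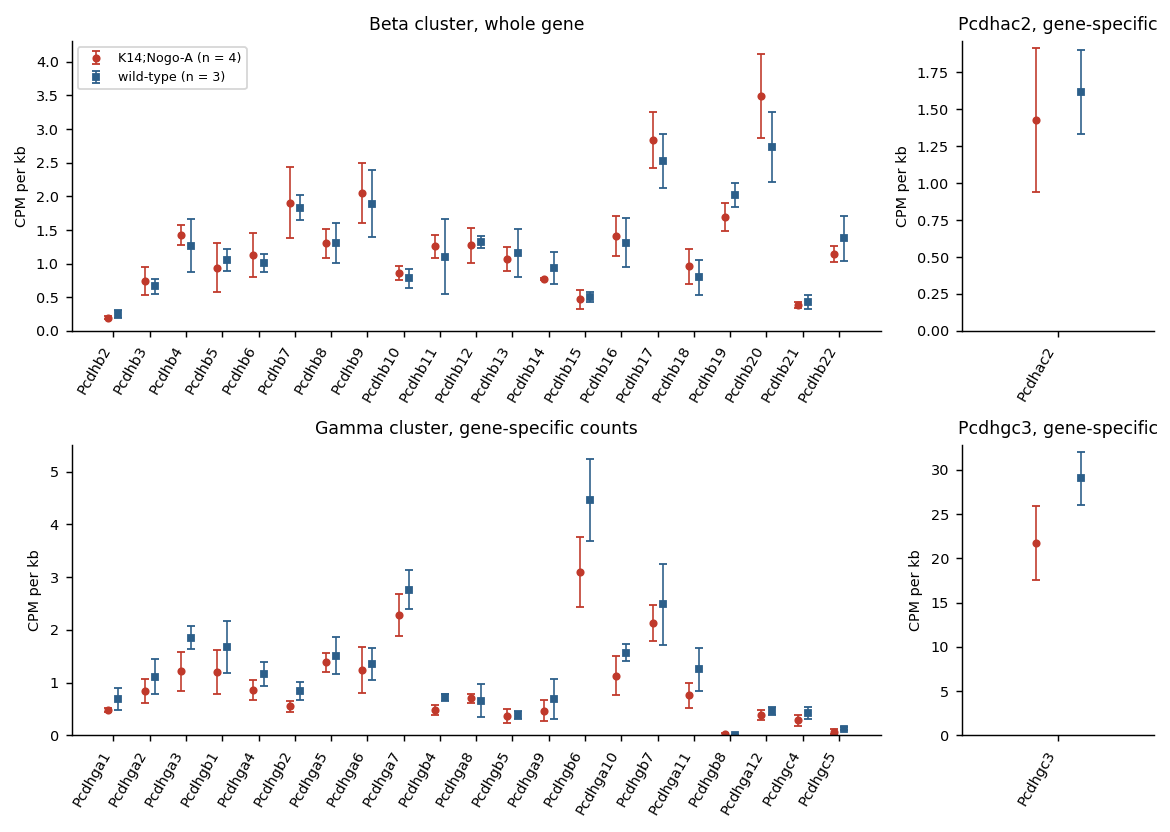
Level in CPM per kb (y axes, each from 0) as mean ± SD of the 4 K14;Nogo-A (red circles) and 3 wild-type (blue squares) libraries, for the beta genes on all their exonic bases (top left) and for gamma genes, Pcdhac2 and Pcdhgc3 on gene-specific counts. Pcdhgc3 at 24.9 CPM per kb has an axis of its own, and the other gamma and the beta genes lie between about 0 and 5 CPM per kb.

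Whether the loss of epithelial Nogo-A went with a change of these genes was tested by edgeR's quasi-likelihood test over all 14791 genes that passed the filter, which the 57 genes all did. None passed the study's thresholds (unadjusted P up to 0.05 with a log2 fold change of 0.5 or more in size) in either direction, where 2.74% of all genes passed them as lower and 2.02% as higher in K14;Nogo-A. None had an adjusted p under 0.05, where 0.0338% of all genes did as lower and 0% as higher. DESeq2, where it gave an adjusted p, and limma-voom also had none of the 57 under 0.05. The log2 fold changes of the 57 genes lay between -0.34 and 0.36. They were negative in 45, against 51.5% of all tested genes, and 36 of these 45 were the alpha and gamma genes with their repeated reads. The median over all tested genes was -0.00687. At an unadjusted p under 0.05, 22 of the 57 genes were lower and 0 higher, against 6.66% and 6.25% of all genes. These 22 were the 22 gamma genes, whose counts are almost wholly the same reads, so they amount to 1 measurement and not to 22.

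Taken once, the gamma shared exons had 220, 225, 226 and 249 CPM in the K14;Nogo-A libraries and 297, 292 and 244 CPM in the wild-type ones. Wild-type replicate 9 lay below K14;Nogo-A replicate 10, so the genotypes overlap. The means were 230 ± 12.7 (SD, n = 4) and 277 ± 28.9 CPM (SD, n = 3), a log2 fold change of -0.27 ± 0.10 (standard error from edgeR's quasi-likelihood test, adjusted p = 0.30). The exact two-sided permutation test over all 35 arrangements gave p = 0.0571, where 0.0286 is the smallest it can give. The unadjusted p of the fit was under 0.05 with all libraries and no longer so without wild-type replicate 3 or without wild-type replicate 8. Among the libraries with Y-linked transcripts the value was 220 CPM in the 1 K14;Nogo-A library against a mean of 294 in 2 wild-type libraries, a log2 ratio of -0.42. Among those without, it was 233 CPM in 3 against 244 in 1, a log2 ratio of -0.06, with overlap. With the presence of Y-linked transcripts as a term it came to -0.23 (adjusted p = 0.387).

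The alpha shared exons had 8.35, 11.2, 12.4 and 13.2 CPM in K14;Nogo-A, against 13.5, 14.4 and 13.4 CPM in wild-type. All 4 K14;Nogo-A libraries lay below the 3 wild-type libraries, and replicate 1 was the lowest. The log2 fold change was -0.29 ± 0.16 (SE of the fit; adjusted p = 0.465; exact permutation p = 0.114). Within the libraries with Y-linked transcripts the log2 ratio of the means was -0.74 and within those without it was -0.13. As deposited, the 14 alpha genes had log2 fold changes from -0.29 to -0.25, with adjusted p from 0.444 to 0.534. Of the 57 genes 13 had no overlap between genotypes, all lower in K14;Nogo-A, where 6.09% of all tested genes were lower and 5.43% higher without overlap. Of these 13, 11 were alpha genes that hold the same shared reads, and the other 2 were Pcdhgb6 and Pcdhgc3.

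Pcdhgc3 was the gene with the smallest unadjusted p of the family. As deposited it had 281, 296, 293 and 341 CPM in K14;Nogo-A, against 384, 386 and 352 CPM in wild-type, with no overlap. This gave a log2 fold change of -0.31 ± 0.10 (SE of the fit; adjusted p = 0.262; exact permutation p = 0.0571), short of the 0.5 of the study. Its gene-specific counts alone gave 61.9, 72.1, 67.8 and 94.4 CPM against 89.4, 97.0 and 110 CPM. Here K14;Nogo-A replicate 10 lay above wild-type replicate 3, and the other 3 K14;Nogo-A values lay below every wild-type value. The means were 74.0 ± 14.2 (SD, n = 4) and 98.7 ± 10.3 CPM (SD, n = 3), a log2 fold change of -0.41 ± 0.14 (SE of the fit; adjusted p = 0.270; exact permutation p = 0.0857). Within the libraries with Y-linked transcripts the log2 ratio of the means was -0.59 (1 against 2 libraries) and within those without it was -0.49 (3 against 1). Both sets are parts of the libraries that gave this gene its small p, so their like sign is no separate check. With the Y-linked term it was -0.54 (adjusted p = 0.181).

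**Figure D3:**
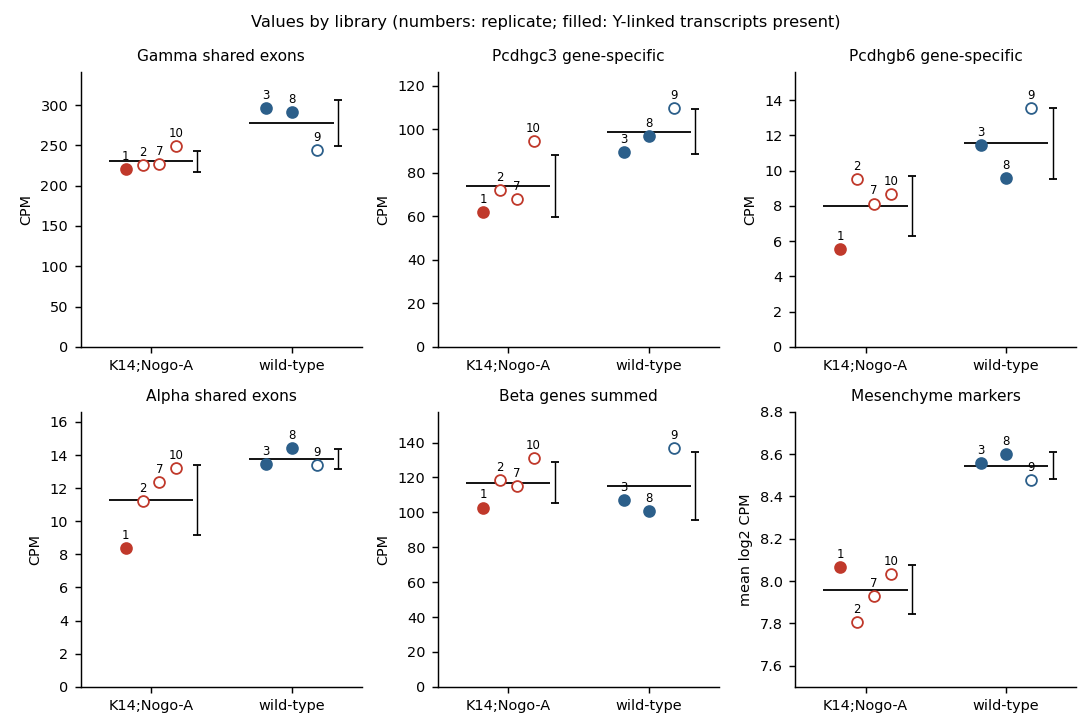
Values in each library (points, numbered by replicate; filled where Y-linked transcripts were present) by genotype, with the mean as a line and its SD as a bar; y axes are in CPM from 0, apart from the mesenchyme markers in mean log2 CPM from 7.5. The gamma shared exons and the gene-specific counts of Pcdhgc3 overlap between genotypes by 1 library each, the beta sum overlaps widely, and the mesenchyme markers do not overlap.

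With shared reads counted once, gene-specific counts of several gamma genes passed the study's thresholds, which their deposited counts did not. This counting was chosen after the data were seen, and so were the genes named from it. Of 22 gamma genes 21 passed the filter, and 20 of these had a negative log2 fold change. Past the study's thresholds, 5 were lower and 0 higher, where 2.79% and 2.02% of all 14782 genes tested in that fit were. At an unadjusted p under 0.05 alone 6 were lower, these 5 and Pcdhgc3, and 0 higher, against 6.56% and 6.23% of all genes. None had an adjusted p under 0.05, and the smallest adjusted p among the gamma genes was 0.270. Pcdhgb6, a gene of the gamma B subfamily, had 5.57, 9.55, 8.13 and 8.67 CPM in K14;Nogo-A, against 11.5, 9.59 and 13.6 CPM in wild-type. All wild-type libraries lay above all K14;Nogo-A libraries, though K14;Nogo-A replicate 2 and wild-type replicate 8 were almost level. Its log2 fold change was -0.53 ± 0.19 (SE of the fit; adjusted p = 0.30; exact permutation p = 0.0571). Pcdhgb4 had 1.79 ± 0.364 CPM (SD, n = 4) against 2.69 ± 0.243 CPM (SD, n = 3), also without overlap, and a log2 fold change of -0.59 (adjusted p = 0.315).

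Pcdhga3, Pcdhgb2 and Pcdhga11 were the other 3, with overlap between the genotypes. Pcdhga3 had 3.18 ± 0.979 against 4.86 ± 0.560 CPM and a log2 fold change of -0.60 (adjusted p = 0.320). Pcdhgb2 had 1.53 ± 0.278 against 2.33 ± 0.456 CPM and also -0.60 (adjusted p = 0.347). Pcdhga11 had 2.03 ± 0.625 against 3.34 ± 1.08 CPM and -0.69 (adjusted p = 0.360). Each of the 5 genes lost its place past the thresholds when single libraries were left out. The number of gamma genes past them as lower, these or others, moved between 1 and 6. Leaving out K14;Nogo-A replicate 1 left 1 (Pcdhgb2) and leaving out wild-type replicate 9 left 1 (Pcdhgb4). There were 3 without wild-type replicate 8, K14;Nogo-A replicate 2 or K14;Nogo-A replicate 7. Those 3 included a gene not among the 5 each time (Pcdhgb1, Pcdhga10 and Pcdhgc4 in this order). The 6 without K14;Nogo-A replicate 10 included Pcdhgb1 and Pcdhgc3, also not among the 5. Within the libraries with Y-linked transcripts (1 against 2) and those without (3 against 1) the means of all 5 were lower in K14;Nogo-A. The 5 were picked as lower in these same libraries, so this is no separate check. Pcdhgb2 overlapped among those with Y-linked transcripts, at 1.90 against 1.85 and 2.40 CPM. The share of all genes past the thresholds is not given for fits with a term, a covariate or a library left out. The counts of these fits therefore cannot be compared with the 5 above. With the Y-linked term 9 gamma genes were past the thresholds, among them 4 of the 5. Pcdhgb2 was no longer past them but had a like value of -0.59. With the mesenchyme covariate Pcdhgb6 was the only one of the 5 past them, at -1.91 ± 0.61 (SE of the fit). Past them too were Pcdhga2 (-2.38 ± 0.84), Pcdhga7 (-1.35 ± 0.59), Pcdhga10 (-2.46 ± 0.78) and the alpha gene Pcdha12 (-6.05 ± 2.61). All had an adjusted p of 0.883. The covariate separates the genotypes fully, so the sizes of these values cannot be relied on. In the deposited counts the same 5 genes had log2 fold changes between -0.28 and -0.27.

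None of the other named gamma genes passed the thresholds. Pcdhga7 had 7.13 ± 1.23 gene-specific CPM against 8.61 ± 1.14 and a log2 fold change of -0.27 (adjusted p = 0.548), and Pcdhgb7 had 5.56 ± 0.892 against 6.48 ± 1.99 and -0.21 (adjusted p = 0.720). Pcdhgc4 had 0.991 against 1.47 CPM (log2 fold change -0.54, adjusted p = 0.530) and Pcdhgc5 0.396 against 0.718 CPM (log2 fold change -0.83, adjusted p = 0.583), both with wide errors at these low counts. The 1 gamma gene with a positive value was Pcdhga8, with 1.84 against 1.74 CPM. In the alpha cluster the gene-specific counts of Pcdhac2 gave 2.83, 3.73, 4.49 and 6.33 CPM in K14;Nogo-A, against 4.03, 5.0 and 5.74 CPM in wild-type. The genotypes overlap and the highest value of all was in K14;Nogo-A (log2 fold change -0.17, standard error 0.26, adjusted p = 0.820). Leaving out 1 library moved this between -0.41 (without K14;Nogo-A replicate 10) and -0.01 (without K14;Nogo-A replicate 1), and the Y-linked term gave -0.43. The log2 ratio was -0.67 among the libraries with Y-linked transcripts and -0.24 among those without. The gene-specific counts of Pcdha2, Pcdha10 and Pcdha12 had log2 fold changes of -0.31, 0.50 and -0.32 with standard errors between 0.52 and 0.75, so none was larger than its error.

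The beta genes lay on both sides of no difference, and none passed a threshold. Of 21 genes 9 had a negative and 12 a positive log2 fold change, with a median of 0.06, and none had an unadjusted p under 0.05. Without overlap between genotypes there were 0. Pcdhb20 had the largest positive value, with 10.5, 14.5, 10.6 and 14.1 CPM in K14;Nogo-A, against 9.95, 7.77 and 11.4 CPM in wild-type. Wild-type replicate 9 lay within the K14;Nogo-A range, and the log2 fold change was 0.36 ± 0.18 (SE of the fit; adjusted p = 0.423; exact permutation p = 0.2). Without wild-type replicate 9 Pcdhb11, named here after its values were seen, passed the study's thresholds as higher, with a log2 fold change of 0.68 (adjusted p = 0.165). Pcdhb17, at 13.2 ± 1.95 and 11.8 ± 1.84 CPM, gave 0.18 (adjusted p = 0.660). Pcdhb18, at 4.84 ± 1.30 and 4.02 ± 1.32 CPM, gave 0.28 (adjusted p = 0.70), and with the Y-linked term this turned to -0.03. Leaving out 1 library moved Pcdhb20 between 0.22 (without wild-type replicate 8) and 0.50 (without wild-type replicate 9), Pcdhb18 between 0.03 and 0.48 and Pcdhb17 between 0.07 and 0.32. The Y-linked term took Pcdhb20 to 0.22 and Pcdhb17 to 0.08. Among the libraries with and those without Y-linked transcripts, the log2 ratio was 0.24 and 0.20 for Pcdhb20, and 0.20 and -0.03 for Pcdhb17.

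On the negative side, Pcdhb19 had 10.2, 13.7, 11.9 and 12.6 CPM in K14;Nogo-A, against 13.5, 13.8 and 15.8 CPM in wild-type. K14;Nogo-A replicate 2 lay just above wild-type replicate 3, for a log2 fold change of -0.25 ± 0.13 (SE of the fit; adjusted p = 0.458; exact permutation p = 0.0857). Its log2 ratio was -0.42 among the libraries with Y-linked transcripts and -0.32 among those without. Pcdhb22 had 7.56 ± 0.818 against 9.10 ± 2.20 CPM (log2 fold change -0.26, adjusted p = 0.572), and -0.45 to -0.13 with 1 library left out. Summed over the cluster, the beta genes had 103, 119, 115 and 131 CPM in K14;Nogo-A, against 107, 101 and 137 CPM in wild-type, a log2 fold change of 0.03, with overlap. Its sign is not settled, since leaving out 1 library gave -0.06 to 0.17 and the ratio was -0.01 among the libraries with Y-linked transcripts and -0.17 among those without. The gamma cluster with shared reads counted once summed to 327, 359, 348 and 406 CPM in K14;Nogo-A, against 453, 452 and 443 CPM in wild-type. All 4 K14;Nogo-A sums lay below the 3 wild-type sums, with a log2 fold change of -0.32, given as a description. It was -0.47 among the libraries with Y-linked transcripts and -0.26 among those without.

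**Figure D4:**
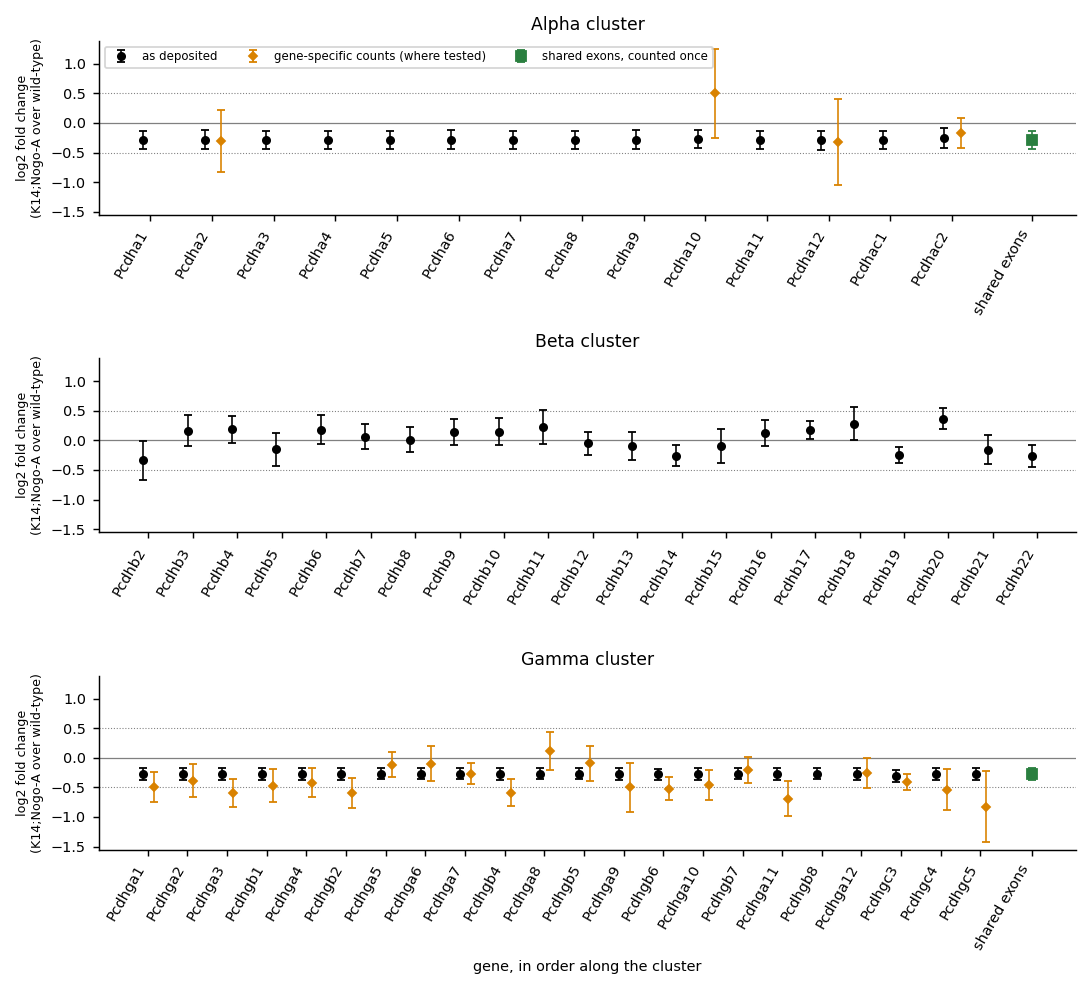
Log2 fold change of K14;Nogo-A over wild-type (y axis, bars show the standard error) of each tested gene of the 3 clusters, as deposited (black circles), on gene-specific counts where these passed the filter (orange diamonds) and for the shared exons counted once (green squares); dotted lines mark 0.5 in size. As deposited, the alpha and gamma genes repeat the value of their shared exons, while the gene-specific values spread from -0.83 to 0.50 and the beta genes lie on both sides of 0.

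Marker lists of several cell types, the sampled epithelium among them, shifted between genotypes, and gamma and alpha genes are read beside them. Of the cell type lists only the mesenchyme markers had means without overlap. All 20 mesenchyme markers (collagens, Vim, Pdgfra and others) had a negative log2 fold change, 6 of them past the study's thresholds, and their mean log2 CPM was 7.81 to 8.07 in K14;Nogo-A, against 8.48 to 8.60 in wild-type without overlap. All 10 endothelium markers were negative too, 5 past the thresholds, at 3.86 to 4.62 and 4.57 to 4.75. Of 10 ameloblast markers 9 were positive, 3 past the thresholds, at 8.20 to 9.37 and 7.79 to 8.29. Of 15 epithelium markers 13 were positive, 3 past the thresholds, at 8.19 to 8.51 and 7.86 to 8.32. Fitted with the mean of the mesenchyme markers as covariate, the gamma shared exons gave a log2 fold change of 0.03 ± 0.36 (SE of the fit, adjusted p = 0.991). The same fit gave -0.43 with a standard error of 0.52 for the gene-specific counts of Pcdhgc3 (adjusted p = 0.908). For the alpha shared exons it gave -0.51 with a standard error of 0.62 (adjusted p = 0.907). Since the mesenchyme markers separate the genotypes fully, mesenchyme content and genotype cannot be told apart in these libraries.

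Other cell types were checked the same way. Odontoblast and osteoblast markers were negative in 8 of 8, with 0 past the thresholds, at 6.37 to 8.05 and 7.85 to 8.36. Immune cell markers were negative in 9 of 10, with 1 past the thresholds, at 1.99 to 2.78 and 2.34 to 3.06. Skeletal muscle markers, 5 of 8 tested, were all positive, with 1 past the thresholds, at -0.78 to 1.66 and 0.17 to 0.83. Of 16 Schwann cell and neuron markers 11 were tested, 7 of them positive, with 1 past the thresholds, at 1.94 to 2.55 and 1.94 to 2.55. The neuronal genes Elavl3, Snap25, Nefl, Nefm and Prph had at most 0.487 CPM in any library, at or near 0. The part of the other cell types in the results was not tested.

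Genes that act with the clusters were described from lists of the pathway. Among non-clustered protocadherins, single genes with exons of their own elsewhere in the genome, 10 of 12 were tested, 8 of them negative. Pcdh10 alone passed the study's thresholds, with 1.11, 1.19, 0.732 and 1.07 CPM in K14;Nogo-A, against 1.67, 1.53 and 1.39 CPM in wild-type. The genotypes did not overlap, with a log2 fold change of -0.59 ± 0.26 (SE of the fit, adjusted p = 0.374). It passed the thresholds no longer with DESeq2, without a filter, with the Y-linked term, with the mesenchyme covariate or without any 1 of 5 libraries. The value itself was -0.59 with DESeq2, -0.51 with the Y-linked term and -0.52 (standard error 1.05) with the covariate. Pcdh18, the most abundant of the list, was alike at 68.6 ± 9.48 and 68.7 ± 7.97 CPM.

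Of 15 chromatin regulators of the clusters, among them Ctcf and the cohesin genes, none passed the thresholds and 13 were negative, where 51.5% of all tested genes were. Unadjusted p under 0.05 (6.66% of all genes as lower) were found for 4, Rad21, Smc1a, Smc3 and Smchd1, with log2 fold changes of -0.23, -0.28, -0.23 and -0.22. These 4 were named after their values were seen. The first 3 encode the ring of cohesin and Smchd1 a repressor of the clusters, and in each the genotypes overlap. Ctcf had 92.6 ± 2.14 CPM in K14;Nogo-A, against 107 ± 14 in wild-type (log2 fold change -0.21, adjusted p = 0.404). Of 20 partners of the cytoplasmic tails (focal adhesion kinases, the WAVE complex, small GTPases and protein kinase C) none passed the thresholds and 14 were negative. Against the same 6.66%, 5 were lower at an unadjusted p under 0.05, Fyn, Wasf2, Rhoa, Prkca and Marcks, also named after their values were seen. The smallest was that of Prkca, with 28.9 ± 2.25 against 37.5 ± 1.87 CPM and a log2 fold change of -0.37 (adjusted p = 0.218). All 7 proteases that cleave protocadherins (Adam10, Adam17 and the gamma-secretase genes) had a positive log2 fold change and none passed the thresholds, the smallest p being that of Psen2 (log2 fold change 0.38, adjusted p = 0.356).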

How the data were processed

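RNA of 7 libraries was analysed. Per the labels, the authors called bases with bcl2fastq 2.19, trimmed adapters, aligned poly(A)-selected single-end reads with STAR 2.7.1 to GRCm38, counted them with featureCounts and deposited raw counts per Ensembl gene. The strand and overlap settings of the counting are not given in the sources used here. Symbols and exons were taken from GENCODE M21, which gives the symbol Pcdha11 to a pair of genes. ENSMUSG00000007440 was called Pcdha10 after the RefSeq gene that starts nearest to it. Of 25700 IDs 36 had no symbol (0.0348% of counts). The 14791 genes that reached 10 counts in 50% or more of one genotype's libraries were tested with TMM factors and the robust quasi-likelihood test of edgeR 4.0.16 in R 4.3.3, without covariates, and Benjamini-Hochberg adjustment. All p and adjusted p are from this test unless named otherwise. The common biological coefficient of variation was 15.2%. The test was tried on simulated counts first.

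For shared reads counted once, the lowest count of the alpha or gamma cluster in each library was taken from every gene of the cluster and kept as 1 row. This fit and the Y-linked term were added after seeing the data. The level per kb used the exonic bases outside the shared exons. The members, gene lists and tests were chosen with earlier results of these data known. Named were the 4 genes of highest mean CPM per cluster, the C-type genes, members and list genes past the thresholds, the 2 largest positive changes and Rtn4. The alternatives were RLE and upper-quartile factors, other filters, a likelihood-ratio test, DESeq2 1.42.0, limma-voom (limma 3.58.1), a mesenchyme covariate, a log2 threshold of 1 and each library left out. The thresholds follow the log2 reading of the study's 0.5, which its methods give as a fold change. Sequences were not used here.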

Additional observations from a re-analysis of the deposited data

Results flagged for a closer look

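Of 90 values examined over the 4 K14;Nogo-A libraries, 4 had a library far from the other 3 by Dixon's criterion (4.44%). Chance gives about 1 in 20 for independent values. These are not independent, since alpha and gamma genes share reads, so the shares cannot be compared. For the gene-specific counts of Pcdhga2, replicate 2 had 3.06 CPM and the others 1.88 to 1.90. For those of Pcdhga3, replicate 10 had 4.64 CPM and the others 2.58 to 2.87. For those of Pcdhga6, replicate 1 had 1.53 CPM and the others 3.75 to 4.00. For Pcdhb10 as deposited, replicate 2 had 1.99 CPM and the others 2.56 to 2.63.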

How the results depend on the processing

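No paired analysis was made. The replicate numbers run across both genotypes and so give no pairing, and the sample titles name no litter. The count of 0 members at an adjusted p under 0.05 held under every alternative run, and that of 0 members past the thresholds changed under those named here. With shared reads counted once, 5 members were lower, all 5 in the gamma cluster, whose median log2 fold change became -0.46, and Pcdha10 turned to 0.50. With both shared reads once and the mesenchyme covariate these were 4 gamma genes and Pcdha12. Leaving out 1 library, 0 to 1 members were higher past the thresholds, the 1 being Pcdhb11 without wild-type replicate 9. With the mesenchyme covariate the medians were -0.52 (alpha), -0.50 (beta) and 0.017 (gamma), and Pcdhb20 gave -0.50, Pcdhb18 -1.74, Pcdhgb7 0.0029, Pcdhgc4 0.028, Pcdhgc5 0.033, Rtn4 -0.41 and the gamma shared exons 0.029. With the Y-linked term Pcdhb18 gave -0.027, the alpha shared exons -0.41 (unadjusted p now under 0.05), and 9 gene-specific gamma counts were past the thresholds. For fits with a term, a covariate or a library left out, the share of all genes past the thresholds is not given. Without it their counts cannot be compared with those of the other fits. With a log2 threshold of 1 the gene-specific count was 0 in place of 5. Leaving out 1 library, the alpha shared exons gave -0.37 to -0.17, the gamma shared exons -0.34 to -0.22, and 1 to 6 gene-specific counts were lower. Divided by only the exonic bases that no other gene covers, the whole deposited count had a median of 5.07 CPM per kb (alpha) and 96.6 (gamma). Divided by all exonic bases it had 2.31 and 53.0. Both include the reads of the shared exons, so neither is a level on the gene's own bases. The gene-specific medians outside the shared exons were 0.0754 CPM per kb (alpha) and 0.968 (gamma). The causes were not tested, apart from the counting of shared reads, which removes the common reads by construction. The alpha genes are the shallowest, and their gene-specific counts were 92 to 286 per library in all.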
